A study of Mus musculus with 6 samples.

Results

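The imprinted growth-control genes are 10 mouse genes that in most tissues are read mainly from the copy of 1 parent and that act on cell division, body growth or tissue differentiation. They were chosen by symbol (Igf2, H19, Cdkn1c, Dlk1, Meg3, Peg3, Plagl1, Mest, Grb10 and Ndn), and all 10 were found among the 55802 genes of the expression tables. The values came from 6 RNA-seq libraries of primary neural stem cells from the subventricular zone (SVZ) of adult C57BL/6 mice, the wall of the lateral ventricle where neurons are made throughout life. The cells were grown in a Neurobasal-type medium with B27, a supplement that contains insulin. The controls were labelled WT and had received ADV-GFP, an adenovirus carrying green fluorescent protein (n = 3); the other group, labelled SETD4 overexpression (SETD4 OE), had received ADV-SETD4-GFP, which also carries SETD4, which belongs to the SET domain family of lysine methyltransferases (n = 3). Both groups therefore carried adenovirus and the fluorescent protein, and infection lasted 24 h. The labels give neither the age of the mice nor whether the libraries of a group came from separate cultures or animals, so p-values measure the spread between these libraries, which may be technical.

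Imprinting is the silencing of a gene copy according to the parent it came from. It is laid down in the germ line as DNA methylation at imprinting control regions, and it is kept through cell division by zinc-finger proteins such as ZFP57 with TRIM28 and by the maintenance methylase DNMT1 with UHRF1. Many imprinted genes lie in clusters in which a long non-coding RNA and coding genes are read from opposite parental copies, and genes read from the father's copy often promote growth while those read from the mother's copy often restrain it. In the SVZ, DLK1 is known as a niche signal of neural stem cells, IGF2 as a growth factor made by the choroid plexus, and p57, the product of Cdkn1c, as an inhibitor that helps keep stem cells quiescent. The libraries report the summed RNA of both copies, and with mice of 1 inbred strain the parental copies cannot be told apart.

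Recovered sequencing depth ran from 14924273 to 18078717 reads per library. Setd4 was at 1.15 ± 0.329 FPKM in control cells and 325 ± 26.4 FPKM in SETD4 OE (mean ± SD, n = 3 each; FPKM scales the fragments of a gene by its length and by the depth of the library), which checks the labels, although viral and endogenous reads are not separated. Mitochondrially encoded genes took 3.78% of the reads in control replicate 1 and 2.45% in each of the other controls, against 3.52% to 3.73% in SETD4 OE. All 10 markers of neural stem cells and astroglia were expressed, and they summed to 2701 to 2919 FPKM in control cells and 3310 to 3486 FPKM in SETD4 OE. Of these, 7 rose and 3 fell: Gfap, an astroglial filament gene, went from 321 to 1388 FPKM, Nes, the progenitor filament gene nestin, from 117 to 42.7 FPKM, and Vim and Fabp7 also fell, so that without Gfap the sums were 2381 to 2591 FPKM and 1964 to 2054 FPKM. Across the transcriptome, 7790 of 12994 tested genes, or 60.0%, passed an adjusted p of 0.05, with 3384 higher in SETD4 OE (26.0%) and 4406 lower (33.9%). Genes that were higher made up 43.4% of the changed genes, and 57.5% with upper-quartile scaling. With scaling to equal sums, by median of ratios or by quantiles they made up 49.7% to 50.8%, so this balance depended on the scaling. Listed reads exceeded the library size behind the FPKM by 0.634% to 2.75% in the controls. In SETD4 OE they fell short of it, at -5.04% to -3.69%. Scaling to equal sums removes this difference, and with it 3888 genes were higher and 3766 lower. The median log2 fold change of all tested genes was then 0.01, beside -0.06 without that scaling. The cause of the shortfall was not tested.

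Of the 10 genes, 9 reached the mean of 1 FPKM needed for testing, and 3 of these 9 changed, beside the 60.0% of all tested genes. Plagl1 and Peg3 rose and Dlk1 fell. The other 6 (H19, Cdkn1c, Meg3, Mest, Grb10 and Ndn) did not pass, and Igf2 lay below the threshold. The groups did not overlap for 4 of the 9, beside 66.0% of all tested genes. The median log2 fold change of the 9 was 0.12, beside -0.06 for all tested genes, and the median of its absolute value was 0.15, beside 0.33. By parental copy, of the 6 genes read mainly from the father's copy in most tissues, 2 rose, 1 fell, 2 did not pass and Igf2 was untested. None of the 4 genes read mainly from the mother's copy in most tissues passed. Among all tested genes 60.0% changed, the split was not tested, and which copy these cells read was not measured.

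The promoters of the genes that changed, and of Meg3, which shares a cluster with Dlk1, are shown because they let the letters of genes that rose, fell or did not pass be compared. They are RefSeq sequences of build GRCm38, not the mm39 build of the tables, run 5′ to 3′ from 250 bases before to 50 bases after an annotated start, and were found for 8 of the 10 genes (15 starts in all). Capitals mark 3 motifs searched on both strands: GGGGCCCC, a palindrome of the kind PLAGL1 binds, TGCCGC, the hexamer that ZFP57 recognises (shown as its reverse complement where it lies on the other strand), and TGACGTCA, the cAMP response element. Plagl1 is at chr10:13090582-13090881 (plus strand), Peg3 at chr7:6730370-6730669 (minus strand), Dlk1 at chr12:109452573-109452872 (plus strand) and the first Meg3 start at chr12:109540746-109541045 (plus strand).
Plagl1: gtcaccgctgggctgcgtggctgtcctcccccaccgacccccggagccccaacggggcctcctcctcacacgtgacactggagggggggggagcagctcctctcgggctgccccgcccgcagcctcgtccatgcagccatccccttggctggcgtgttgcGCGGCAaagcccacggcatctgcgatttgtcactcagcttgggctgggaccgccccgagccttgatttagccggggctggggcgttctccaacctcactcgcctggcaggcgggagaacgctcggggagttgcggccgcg
Peg3: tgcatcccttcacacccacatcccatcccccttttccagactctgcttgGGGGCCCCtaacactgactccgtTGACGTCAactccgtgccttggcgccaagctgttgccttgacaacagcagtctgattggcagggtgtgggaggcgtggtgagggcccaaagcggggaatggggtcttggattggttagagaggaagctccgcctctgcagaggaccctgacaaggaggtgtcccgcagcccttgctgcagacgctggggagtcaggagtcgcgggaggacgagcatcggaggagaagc
Dlk1: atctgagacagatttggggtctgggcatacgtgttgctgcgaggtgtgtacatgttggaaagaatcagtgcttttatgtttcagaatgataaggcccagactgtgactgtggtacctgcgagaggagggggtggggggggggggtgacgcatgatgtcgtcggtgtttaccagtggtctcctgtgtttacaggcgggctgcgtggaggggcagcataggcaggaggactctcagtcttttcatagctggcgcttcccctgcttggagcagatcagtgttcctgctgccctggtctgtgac
Meg3: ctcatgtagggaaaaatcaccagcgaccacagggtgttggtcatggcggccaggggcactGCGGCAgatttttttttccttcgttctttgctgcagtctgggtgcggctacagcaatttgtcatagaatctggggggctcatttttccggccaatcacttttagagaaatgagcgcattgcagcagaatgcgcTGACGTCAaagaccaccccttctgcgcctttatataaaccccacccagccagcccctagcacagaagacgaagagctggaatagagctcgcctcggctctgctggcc

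Counting bases from 1 at the 5′ end, the Peg3 promoter held GGGGCCCC at base 50 and TGACGTCA at base 73. The Meg3 promoter held TGACGTCA at base 194 and the ZFP57 hexamer at base 61, and the Plagl1 promoter held the hexamer at base 161. The Dlk1 promoter held none of the 3. The hexamer was present at a start of 5 of the 8 genes, and at any start of 13.1% of all 27025 genes with such promoters. By window it was in 6 of 15, of which the windows of 2 Mest starts overlap (5 of 14 with these taken as 1), and in 11.6% of all 32851. GGGGCCCC was in 1.08% of all windows and TGACGTCA in 1.79%. A YY1 motif, GCCATNTT, was in none of the 15 and in 6.05% of all. The Plagl1 promoter held 26 CpG dinucleotides, Peg3 13, Meg3 13 and Dlk1 9, beside a median of 7. These are letter matches in these windows only, the motifs do not overlap each other here, and neither methylation nor binding was measured.

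The highest gene in both groups was Mest, followed by Ndn, and the lowest was Igf2. In the controls the order by mean was Mest, Ndn, Dlk1, Peg3, Cdkn1c, Grb10, Plagl1, Meg3, H19 and Igf2. The library ranges of Dlk1 and Peg3, of Cdkn1c and Grb10, and of Meg3 and H19 overlapped, so their order within each pair is not set. In SETD4 OE Peg3 and Plagl1 came next after Ndn and Dlk1 came between Meg3 and H19, where its range overlapped those of Meg3 and H19; Plagl1 and Cdkn1c, and Cdkn1c and Grb10, overlapped too. Mest alone made up 58.3% to 61.1% of the summed FPKM of the 10 genes in the controls and 55.3% to 58.0% in SETD4 OE.

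**Figure D1:**
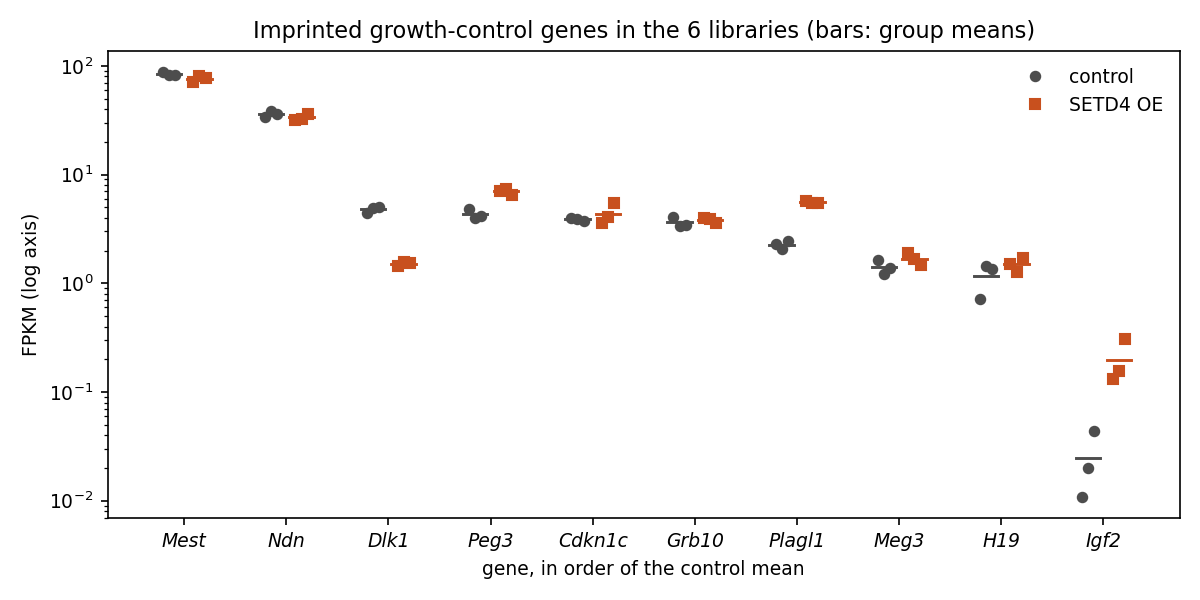
FPKM of the 10 imprinted growth-control genes on a log axis, with a point for each of the 3 control libraries (circles) and 3 SETD4 OE libraries (squares) and a bar at each group mean. Dlk1 lies lower in all 3 SETD4 OE libraries, Peg3, Plagl1 and Igf2 lie higher, and Mest stays near the top at 84.1 and 75.9 FPKM.

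Among the growth-restraining genes, Plagl1 had the largest change. It encodes a zinc-finger transcription factor, also called ZAC1, that can arrest the cell cycle and that is known to regulate other imprinted genes (ENSMUSG00000019817; mm39 chromosome 10, 12936248 to 13007438, plus strand). Its level was 2.30, 2.06 and 2.45 FPKM in control replicates 1 to 3 and 5.73, 5.47 and 5.44 FPKM in SETD4 OE replicates 1 to 3. Every SETD4 OE library was above every control. Its mean went from 2.27 ± 0.199 to 5.545 ± 0.159 FPKM, with a log2 fold change of 1.00 on the log2(FPKM + 1) scale (SE 0.07, limma adjusted p = 2.865e-05). On that scale the change of low genes is understated, and with limma-voom on recovered reads it was 1.36 (SE 0.09).

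Cdkn1c encodes p57, a cyclin-dependent kinase inhibitor of the CIP/KIP family (ENSMUSG00000037664; chromosome 7, 143012076 to 143014787, minus strand). It was at 3.95, 3.93 and 3.76 FPKM in control cells and at 3.57, 4.07 and 5.45 FPKM in SETD4 OE. The groups overlapped, and SETD4 OE replicate 3 was the highest library. The log2 fold change was 0.12 with a 95% interval of -0.17 to 0.41 (adjusted p = 0.427, limma). Without SETD4 OE replicate 3 it was -0.02.

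Grb10, an adaptor that dampens insulin and IGF1 receptor signalling, is read from the mother's copy in most tissues and from the father's in neurons (ENSMUSG00000020176; chromosome 11, 11880508 to 11988683, minus strand). Its 3 control values were 4.11, 3.37 and 3.46 FPKM and its SETD4 OE values were 3.97, 3.86 and 3.61 FPKM. All SETD4 OE values lay within the control range. The log2 fold change was 0.05 (95% interval -0.14 to 0.24, adjusted p = 0.597, limma).

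Ndn encodes necdin, which binds E2F1 and p53 and restrains proliferation of neural cells (ENSMUSG00000033585; chromosome 7, 61996317 to 62000010, plus strand). The controls were at 33.9, 38.1 and 35.8 FPKM and the SETD4 OE libraries at 31.6, 32.7 and 36.2 FPKM. These ranges overlapped. The log2 fold change was -0.10 (95% interval -0.27 to 0.07, adjusted p = 0.270, limma), and its sign turned under the upper-quartile (0.05) and quantile (0.07) scalings.

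H19 is a long non-coding RNA, host of miR-675, that shares its cluster with Igf2 and is read from the other parental copy (ENSMUSG00000000031; chromosome 7, 142129266 to 142131880, minus strand). It was at 0.711, 1.46 and 1.35 FPKM in control cells and at 1.52, 1.28 and 1.71 FPKM in SETD4 OE. Control replicate 1 was low, with 28 reads, beside 49 to 70 in the other 5 libraries. The log2 fold change of 0.22 (95% interval -0.16 to 0.59, adjusted p = 0.269, limma) was 0.05 without control replicate 1.

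Among the growth-promoting genes, Mest, which encodes a protein of the alpha/beta hydrolase fold, was the most abundant (ENSMUSG00000051855; chromosome 6, 30723546 to 30748464, plus strand). It was at 87.7, 82.7 and 81.9 FPKM in control cells and at 70.6, 80.4 and 76.8 FPKM in SETD4 OE. All 3 SETD4 OE libraries were below all 3 controls, with a gap smaller than the spread within either group. The log2 fold change of -0.15 (95% interval -0.30 to 0.01) did not pass (adjusted p = 0.0946, limma), and its sign turned under 2 other scalings (0.0011, upper quartile, and 0.04, quantile). Mest overlaps Copg2 on the opposite strand by 912 bases, and with no strand setting given some of its reads may belong to Copg2, which was at 18.8 ± 1.36 and 19.6 ± 1.45 FPKM.

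Igf2 encodes insulin-like growth factor 2, the main fetal growth factor of the family (ENSMUSG00000048583; chromosome 7, 142204503 to 142220553, minus strand). It was nearly unread: 1, 2 and 4 reads in the controls and 12, 14 and 29 reads in SETD4 OE, or 0.0109, 0.0199 and 0.0439 FPKM and 0.133, 0.157 and 0.304 FPKM. All 3 SETD4 OE libraries were above all 3 controls. The summed reads, 7 and 55, gave a ratio of 8.11 per library size, with an exact 95% interval of 3.68 to 21.1 that covers counting error only. Igf2 was not part of the main test. With no filter on low values the adjusted p was 0.0396 with limma and 0.00217 with limma-voom on recovered reads, a fit added after its values were seen, where 26.0% and 30.8% of all genes passed.

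Markers of choroid plexus epithelium, where Igf2 is known to be expressed, also had higher values in SETD4 OE. The groups did not overlap for any of the 10, beside 66.0% of all tested genes without overlap. Of 5 tested 5 rose, beside 26.0% of all tested genes, and the untested ones had a mean below 1 FPKM. The list summed to 254 to 285 FPKM in control cells and 636 to 725 FPKM in SETD4 OE. Most of that sum was Ttr, transthyretin, at 255 ± 17.0 and 660 ± 44.2 FPKM, and the other 9 summed to 8.32 to 9.65 FPKM and 22.1 to 24.3 FPKM, while the choroid plexus genes Kl and Prlr were at 0.0545 and 0.00260 FPKM in the control libraries and at 0.188 and 0.0176 FPKM with SETD4. Of 10 markers of meningeal and perivascular fibroblasts, 8 had a higher mean in SETD4 OE, 6 of them without overlap of the groups. Slc22a6, among the 8, had 1 read in SETD4 OE replicate 1 and 0 elsewhere. The list summed to 8.54 to 9.50 FPKM and 15.7 to 16.9 FPKM. Of 4 tested, 3 rose, beside 26.0% of all tested genes, and Foxc1 fell (3.54 to 1.92 FPKM). Twist1, which was not tested, was also lower in all SETD4 OE libraries (1.14 and 0.368 FPKM). Endothelial markers summed to 4.09 to 4.47 FPKM and 1.52 to 1.69 FPKM, with Cldn5 and Tie1 at 0 in all libraries. That difference was in Flt1 (3.43 and 0.618 FPKM); the other 9 summed to 0.807 to 0.900 FPKM and 0.922 to 1.01 FPKM, and 4 of the 10 had a higher mean in SETD4 OE. Ependymal markers went the same way as those of the choroid plexus, from 25.1 to 28.8 FPKM up to 61.0 to 79.1 FPKM. Of 7 tested 7 were higher, beside 26.0% of all tested genes. Microglial markers summed to 1.09 to 1.32 and 2.31 to 2.54 FPKM, with none tested and 5 of the 10 averaging below 0.1 FPKM. A higher mean in SETD4 OE was seen for 9 of the 10, but only 3 were higher without overlap of the groups. Among all tested genes 66.0% did not overlap, in either direction. Neuronal markers summed to 44.1 to 47.2 and 40.4 to 47.3 FPKM, mostly from Map2 (29.1 and 30.9 FPKM). Of 5 tested, Nefl (7.65 to 0.577 FPKM) and Gad2 fell and Gad1 and Tubb3 (5.66 to 8.69 FPKM) rose. Among all tested genes 33.9% fell and 26.0% rose. The part of these cell types in the values of Igf2 or of the other genes was not tested, and in bulk samples more cells of a type and more RNA per cell cannot be told apart.

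Of the genes that act in differentiation as well as growth, Dlk1 had the only fall. It encodes a transmembrane and secreted protein related to Notch ligands that holds progenitors in an undifferentiated state (ENSMUSG00000040856; chromosome 12, 109418749 to 109429262, plus strand). It was at 4.45, 4.93 and 5.02 FPKM in control cells and at 1.46, 1.57 and 1.53 FPKM in SETD4 OE. The lowest control was far above the highest SETD4 OE library. The mean was 3.16 times higher in the controls (4.80 ± 0.310 and 1.52 ± 0.0578 FPKM), with a log2 fold change of -1.20 (SE 0.07, limma adjusted p = 1.486e-05).

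Peg3, a large zinc-finger protein gene linked to maternal behaviour and stem cell control, rose (ENSMUSG00000002265; chromosome 7, 6706891 to 6733430, minus strand). Control values were 4.81, 4.01 and 4.13 FPKM and SETD4 OE values were 7.05, 7.40 and 6.49 FPKM. The groups were separate, with a mean 1.62 times higher in SETD4 OE and a log2 fold change of 0.59 (SE 0.08, limma adjusted p = 6.601e-04). Usp29, which starts 147 bases from Peg3 on the other strand, was at 0.0575 and 0.0638 FPKM.

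**Figure D2:**
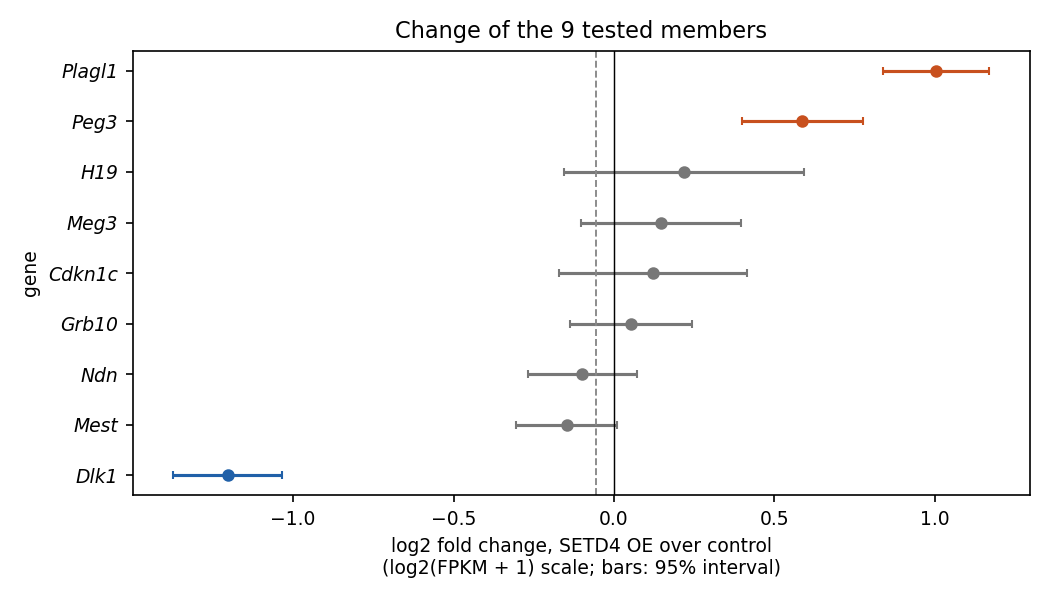
Log2 fold change of the 9 tested genes on the log2(FPKM + 1) scale, with 95% intervals, orange for genes that rose, blue for genes that fell and grey for genes that did not pass; the dashed line marks the median of all tested genes, -0.06. Plagl1 and Peg3 lie to the right at 1.00 and 0.59, Dlk1 to the left at -1.20, and the other 6 intervals reach across 0.

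Meg3, a long non-coding RNA read from the mother's copy, lies on the same strand 77.6 kb beyond Dlk1 (ENSMUSG00000021268; chromosome 12, 109506884 to 109538160). It was at 1.64, 1.23 and 1.39 FPKM in control cells and 1.88, 1.68 and 1.48 FPKM in SETD4 OE. These ranges overlapped, and the log2 fold change was 0.15 (95% interval -0.10 to 0.40, adjusted p = 0.263, limma; 0.32 and adjusted p = 0.0466 with limma-voom, within a range of 0.0466 to 0.715 over the alternatives). The FPKM ratio of Dlk1 to Meg3 was 2.71, 4.03 and 3.61 in the controls and 0.774, 0.937 and 1.03 in SETD4 OE. The groups were separate, with a mean log2 difference of -1.91, and the exact two-sided permutation p of 0.1 is the smallest that 3 against 3 libraries can give. The ratio was chosen after the values were seen.

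Further along the Dlk1 cluster the genes were low and below the test threshold. Rian, a non-coding RNA read like Meg3 from the mother's copy, was at 0.767, 0.723 and 0.676 FPKM in control cells and 0.598, 0.553 and 0.458 FPKM in SETD4 OE. Dio3, the deiodinase that inactivates thyroid hormone, had 2, 3 and 1 reads in the controls and 30, 19 and 28 in SETD4 OE, a ratio of 13.2 per library size (exact 95% interval 5.81 to 37.2, counting error only). Rtl1, a retrotransposon-derived gene read from the father's copy, had 13 reads over the controls and 4 over SETD4 OE, a ratio of 0.318 whose exact 95% interval, 0.0754 to 1.03, includes equal levels. Mirg, a non-coding RNA read like Rian from the mother's copy, had 1, 6 and 0 reads in the controls and 5, 8 and 13 in SETD4 OE. Dlk1, Rian and Rtl1 thus had lower values and Dio3 higher values in all SETD4 OE libraries, Rtl1 on few reads. The groups overlapped for Meg3 and Mirg. Among all tested genes the groups did not overlap for 66.0%.

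Around Ndn, in the cluster that corresponds to the Prader-Willi region, 2 of the 5 tested imprinted genes fell, beside 33.9% of all tested genes. Peg12, an intronless relative of the Frat genes that lies 112 kb from Ndn, fell from 17.8 ± 2.44 to 4.81 ± 0.0349 FPKM (a log2 change of -1.69 with an SE of 0.10, limma adjusted p = 1.253e-05). Ube3a, a ubiquitin ligase, fell by 0.41 on the log2 scale (7.70 ± 1.10 to 5.51 ± 0.422 FPKM). It overlaps its antisense RNA Snhg14, so reads of both genes cannot be separated without strand. Snrpn, a splicing factor subunit, was at 12.7 ± 0.565 and 14.1 ± 0.601 FPKM (adjusted p = 0.0690, limma), and Mkrn3 at 2.11 ± 0.613 and 2.36 ± 0.747 FPKM (adjusted p = 0.654, limma).

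**Figure D3:**
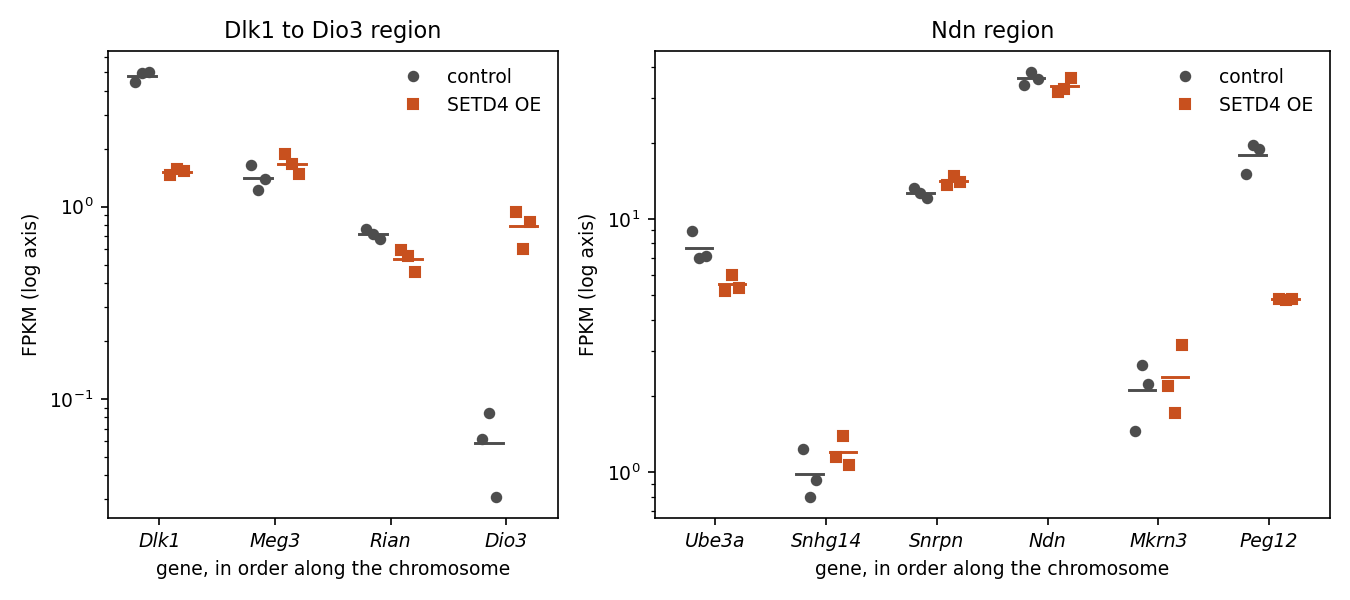
FPKM on a log axis of imprinted genes of the Dlk1 to Dio3 region (left) and of the region around Ndn (right), in order along the chromosome, with a point per library (circles for control, squares for SETD4 OE) and bars at group means. Dlk1 lies lower and Dio3 higher in SETD4 OE while Meg3 overlaps, and Peg12 lies lower while Ndn and Mkrn3 overlap.

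The clusters of the other genes held few tested imprinted genes. Near Igf2 and Cdkn1c, Cd81, a tetraspanin, rose by 0.40 on the log2 scale, and Tssc4 and Osbpl5 did not pass (0.22 and -0.09). Kcnq1ot1, the non-coding RNA of the Cdkn1c domain, was at 0.120 and 0.135 FPKM. Over the nearest expressed coding gene on each side of every member, 17 genes in all, 5 rose, 8 fell and 4 did not pass, beside 26.0% higher and 33.9% lower over all tested genes. One of the 8 is Dlk1 itself, as the neighbour of Meg3; of the other 16, 7 fell. Those beside Plagl1 both fell while Plagl1 rose: Sf3b5, a splicing factor subunit, with a log2 fold change of -0.45, and Ltv1, a ribosome assembly factor, with -0.68. Those beside Peg3, the zinc-finger genes Zfp28 and Zfp954, both rose (0.45 and 0.26) and lie 307 and 384 kb away. On the sides of Grb10, Fignl1 (122 kb away) and Sec61g (4461847 bases away) both fell (-1.85 and -0.32). Mrpl23, next to H19, and Cep41, next to Mest, fell by 0.30 and 0.47 on the log2 scale, and Mkln1, on the other side of Mest, did not pass (-0.06). Begain, upstream of Dlk1, rose (0.34), and Ppp2r5c, beyond Meg3, did not pass (-0.10). Beside Cdkn1c, Nap1l4 fell (-0.40) and Trpm5, which overlaps Tssc4, rose (0.48).

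Of a list of 46 other imprinted genes, 26 were tested, 7 rose and 4 fell, or 42.3% changed beside 60.0% of all tested genes, with a median of 0.08 beside -0.06. By upper-quartile scaling 10 rose and 2 fell. With quantile normalization and with limma-voom 14 of the 26 changed, 10 of them higher. With limma-voom 61.2% of all tested genes changed. Without control replicate 2, 9 of the 26 changed. Nnat, neuronatin, a small membrane protein of the endoplasmic reticulum, rose from 42.6 ± 0.787 to 128 ± 5.20 FPKM (a log2 change of 1.56 with an SE of 0.05, limma adjusted p = 2.516e-06), the largest rise among the 26 tested. Zrsr1, a U2AF-related splicing gene, rose by 0.50 on the log2 scale. Inpp5f, a phosphoinositide phosphatase gene of which only some transcripts are imprinted, fell from 29.7 ± 0.553 to 17.1 ± 0.713 FPKM. Peg12 had the largest fall among the 26. Transcripts of a gene are summed in these values, so imprinted and other transcripts of Inpp5f or Gnas are not separated.

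The largest changes among factors that keep or read imprints were falls. Of 21 listed, 17 were tested, 5 rose and 9 fell, or 82.4% beside 60.0% of all tested genes, with a median of -0.16. The count of 14 was 11 with the replicate block, with quantile normalization and without SETD4 OE replicate 1. Uhrf1, which brings DNMT1 to newly copied DNA, fell from 26.5 ± 2.19 to 4.25 ± 0.247 FPKM (log2 fold change -2.38), Hells, a chromatin remodeller needed for DNA methylation, from 6.36 ± 0.580 to 1.09 ± 0.155 FPKM (-1.82), and Dnmt1 from 24.7 ± 1.05 to 9.79 ± 0.255 FPKM (-1.25). Trim28, the co-repressor that ZFP57 recruits, fell by 0.86 on the log2 scale and overlaps Zbtb45 on the opposite strand. Zfp57 and Zfp445, the zinc-finger proteins that recognise imprinting control regions, both rose, from 1.32 ± 0.127 to 1.86 ± 0.129 FPKM and from 18.8 ± 0.597 to 23.7 ± 1.12 FPKM. Dnmt3a, a de novo methylase, did not pass (0.02). With the replicate number as a block, or without SETD4 OE replicate 1, 3 rather than 5 factors rose.

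Among 13 partners of IGF2 signalling, 8 were tested, 1 rose and 5 fell, or 75.0% beside 60.0% of all tested genes, with a median of -0.21. Igf2bp2, which binds Igf2 mRNA, fell from 6.50 ± 0.289 to 2.46 ± 0.254 FPKM and Irs2, a substrate of the insulin and IGF receptors, from 30.5 ± 0.537 to 16.01 ± 0.399 FPKM. Irs1 and the insulin receptor gene Insr fell by 0.29 and 0.28 on the log2 scale. Igf2r, the imprinted clearance receptor of IGF2, was at 10.9 ± 0.337 and 10.3 ± 0.575 FPKM and did not pass. Igf1r, the signalling receptor, was at 3.70 ± 0.0559 and 4.61 ± 0.562 FPKM (log2 fold change 0.25, adjusted p = 0.0334, limma), a rise called in no fit with the replicate block and in none that left out control replicate 1, 2 or 3 or SETD4 OE replicate 1 or 2. With upper-quartile scaling 2 partners fell.

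**Figure D4:**
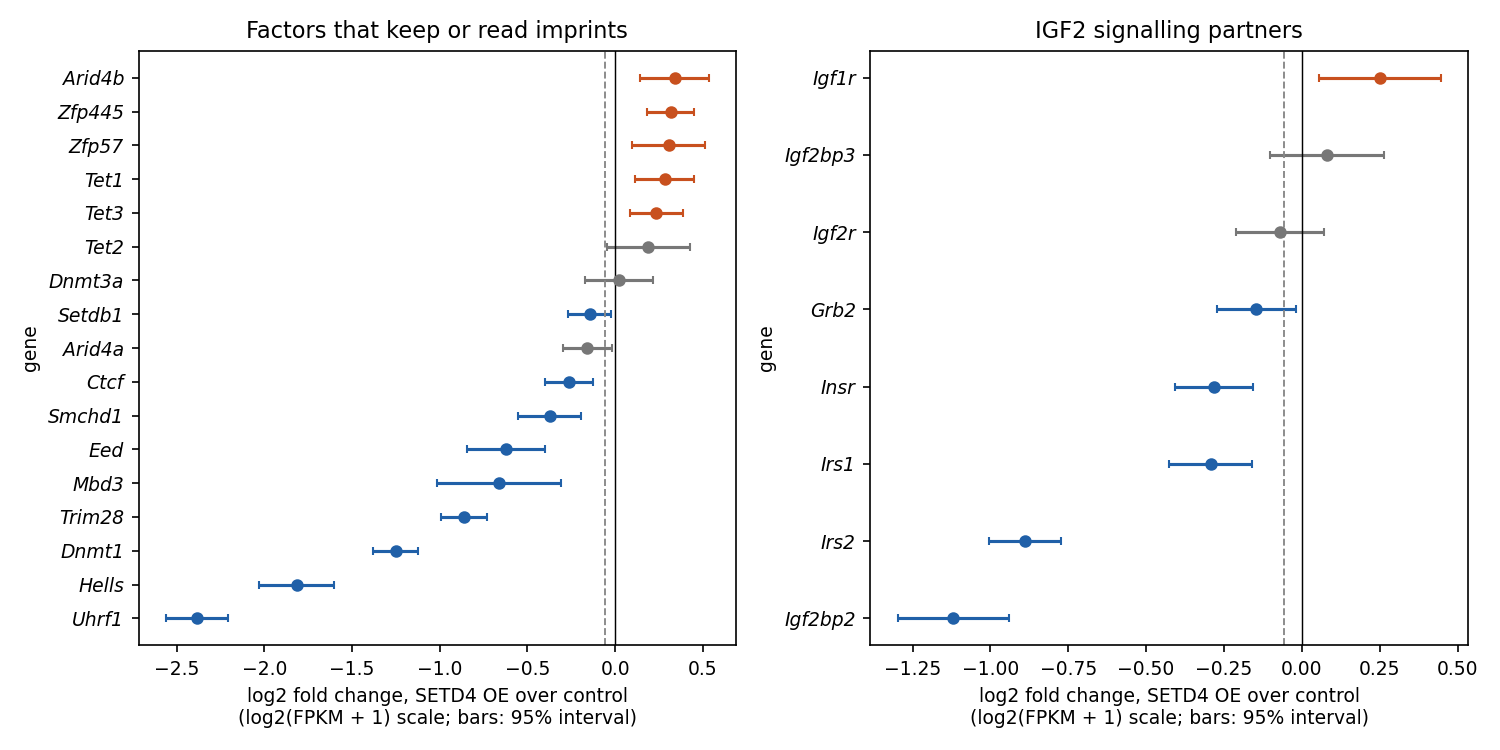
Log2 fold changes on the log2(FPKM + 1) scale with 95% intervals for tested factors that keep or read imprints (left) and tested partners of IGF2 signalling (right), coloured orange for higher, blue for lower and grey for not passing, with a dashed line at the median of all tested genes, -0.06. Uhrf1, Hells and Dnmt1 lie farthest to the left, at -2.38, -1.82 and -1.25, and Zfp57 and Zfp445 to the right, at 0.31 and 0.32.

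The genes whose profiles over the 6 libraries were most like the 2 most abundant members were found by the mean absolute difference of log2(FPKM + 1) after centring. For Mest these were Dnajc24 (0.0126), Tmed7 (0.0139) and Atp6v1h (0.0175), and for Ndn they were Trub2 (0.0164), Tmem222 (0.0179) and Eif1b (0.0190). Because they were picked by likeness in these same libraries, their log2 fold changes, -0.17 to -0.06, lie near those of Mest and Ndn by construction. None of the 6 passed, which follows from the same choice.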

How the data were processed

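RNA-seq expression was analysed in 6 libraries, 3 control and 3 SETD4 OE, grouped by sample title. Reads had been mapped to mm39 using HISAT2 2.0.5, as the submitters' processing notes list. Which tool counted them, with which annotation and strand setting, is not given in the sources used here. Per gene, the authors deposited FPKM with gene coordinates and lengths in a table per group. FPKM times length was a whole multiple of 1 step for 100% of values above 0 (tolerance 0.05 reads), which gave back the reads per gene.

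After a log2(FPKM + 1) transform, limma 3.58.1 (R 4.3.3) was fitted to genes whose mean reached 1 FPKM (mean-variance trend, two-sided, 95% intervals from the same fit), with Benjamini-Hochberg adjustment over all 12994 tested genes and a threshold of 0.05. Replicates were compared by chi-square over recovered reads, with 3.68 to 14.8 per degree of freedom for libraries of the same group and 83.0 to 109 for others, so no library was counted as a repeat. limma-voom used trimmed-mean scaling of recovered reads. Members, gene lists and tests were chosen with earlier results of these data known. The named genes were all members, Setd4, up to 4 called genes of each list with the largest change, the nearest coding gene averaging 1 FPKM or more on each side of a member, and the 3 closest profiles to each of the 2 most abundant members; other genes were named after their values were seen. Igf2r is in 2 lists. Alternatives were other filters, a pseudocount of 0.1, a replicate block, 4 other scalings, limma-voom and leaving out each library. Figures were drawn with matplotlib 3.10.9.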

Additional observations from a re-analysis of the deposited data

How the results depend on the processing

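The calls of Plagl1, Peg3 and Dlk1 held under each alternative in which they were tested, with log2 fold changes of 0.96 to 1.36, 0.55 to 0.77 and -1.68 to -1.10. A filter at a mean of 5 FPKM left Mest, Ndn and Peg3, so that 1 member changed, 1 higher and 0 lower. With limma-voom and no filter, added after the data were seen, 5 members changed, 2 of them lower, as Igf2 (2.81) and Mest (-0.17, adjusted p = 0.0169) passed; the adjusted p of Mest ranged from 0.0169 to 0.991 over its alternatives. Igf2 was at 0.22 on the log2(FPKM + 1) scale with no filter. Meg3 passed with limma-voom alone (0.32). Signs turned, without a call, for Mest with upper-quartile scaling (0.0011) and quantile normalization (0.0395), for Ndn with the same settings (0.0474 and 0.0694) and for Cdkn1c without SETD4 OE replicate 3 (-0.0192; up to 0.2285 without another library). Upper-quartile scaling moved the median of all tested genes by 0.12. With scaling to equal sums Mest was at -0.07 and Ndn at -0.02. Leaving out a library in turn kept 3 members changed (2 higher, 1 lower) and gave 6683 to 7840 changed genes.

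With the filter at 5 FPKM, 9 factors that keep or read imprints changed (2 higher) and 3 partners of IGF2 signalling changed (0 higher, 3 lower). With upper-quartile scaling 3 partners changed (2 lower), as did 2 other imprinted genes downward. Partners that rose numbered 3 with no filter and 4 with limma-voom and no filter. Leaving out a library gave 3 to 5 factors and 0 to 1 partners higher. The cause of these differences was not tested.

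The replicate block gave 6941 changed genes and the same number of changed members, 3, but 3 factors and 0 partners higher. Same-numbered libraries did not deviate together (correlations across genes of -0.07, -0.23 and 0.08), so the numbers are not taken to pair the libraries. Depth limits Igf2, Dio3, Rtl1 and H19, which rest on at most 70 reads per library.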

Other observations

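Of 5 imprinted genes nested in or beside a host gene, picked after their values were seen, 3 rose (Nnat, Zrsr1 and Nap1l5), and Mcts2 and Peg13 did not pass, beside 26.0% higher among all tested genes. Nnat rose (42.6 ± 0.787 to 128 ± 5.20 FPKM), while its host Blcap was at 22.2 ± 0.960 and 19.6 ± 2.28 FPKM and did not pass (adjusted p = 0.116, limma). Zrsr1 rose from 2.74 ± 0.226 to 4.30 ± 0.329 FPKM, while its host Commd1 fell from 2.88 ± 0.456 to 1.88 ± 0.291 FPKM (adjusted p = 0.0180, limma). Nnat and Blcap overlap by 2445 bases and Zrsr1 and Commd1 by 4492 bases on opposite strands, so without a strand setting reads may be shared between the genes of a pair. Nap1l5 had a log2 fold change of 0.45 and its host Herc3, which did not pass, 0.12. Nap1l5 and Herc3 overlap by 1844 bases on opposite strands, so their reads may be shared too. The difference between the changes of a pair was not tested.

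In the same region as Igf2, Ins2, an insulin gene that is imprinted in the yolk sac, was at 0.190, 0.477 and 0.575 FPKM in control cells and 1.21, 1.47 and 1.14 FPKM in SETD4 OE. Sfmbt2, an imprinted Polycomb-type gene, held 146 reads over the controls and 334 over SETD4 OE. Both were below the test threshold.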
